A study of Arabidopsis thaliana with 12 samples.

Results

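The comparison described here set whole roots of the Arabidopsis thaliana mutant cngc4 against whole roots of the mutant akt1, and it was read across every probe set of the array other than the control probe sets. Its members were chosen by label alone: the 3 arrays labelled cngc4 and the 3 labelled akt1, which are 6 of the 12 arrays of the series. The other 6 arrays, 3 of the wild type ws2 and 3 of the mutant cngc1, entered the fit as further groups and are quoted for level only. The akt1 plants were the line akt1-1, stock N3762, in the ecotype Wassilewskija. For cngc4 the ecotype field gives only the name of the mutant and no background accession or stock, so a difference in accession and the mutation cannot be told apart. All plants were sampled at growth stage 3.90 after their seeds had been imbibed in the cold, were raised in a growth room at 80% humidity, and were pooled, 20 to 40 to a sample. The labels do not say whether the 3 samples of a genotype were grown separately, so p-values reflect only how these samples varied, which may be technical. Both groups carry a mutation, so a value that is higher in cngc4 is a value relative to akt1 and not to a wild type.

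AKT1 is an inward potassium channel of the root epidermis and root hairs through which roots take up potassium. CNGC4 belongs to the cyclic nucleotide-gated channels, which pass cations, calcium among them, and its loss is known in leaves for altered defence and cell death. Roots hold plastids that do not normally carry out photosynthesis, and under a shortage of carbon plant cells can break down amino acids, lipids and other reserves as respiratory fuel. Root growth in turn depends on enzymes and proteins that loosen and remodel the cell wall, such as expansins and xyloglucan endotransglucosylases, and on hormones such as auxin and gibberellin.

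Signals are in arbitrary units on a linear scale that gave the trimmed mean of every array the same value, and the median signal ran from 43.3 to 48.5 over the 12 arrays. For actin, the 3-prime over 5-prime signal ratio, a reading of RNA integrity, was 1.64 to 1.94 in cngc4 and 1.58 to 2.06 in akt1, and that of GAPDH was 1.06 to 1.25 and 1.12 to 1.19, so both ranges overlapped. The control probe set for the 25S ribosomal RNA read 1021, 2103 and 1136 in cngc4 and 1597, 519 and 1869 in akt1, also with overlap. In ws2 it read 67.6 to 330 and in cngc1 97.1 to 458.5, below every cngc4 and akt1 sample. Of the 12 arrays cngc1 replicate 3 had the highest noise, 12.89, and the most outlier cells, 1251. Each cngc4 array correlated best with another cngc4 array, whereas among the akt1 arrays only replicate 2 correlated best with its own group. The targeted genes were not analysed here, so the labels were not checked against them, and the 5 members of the related transporter families that could be named (all CHX exchangers) lay below the filter on low signal. Root hair genes were present in both genotypes: the expansin gene EXPA7 read 112 to 141 in cngc4 and 96.9 to 172 in akt1, and EXPA18 read 149 to 192 and 156 to 293.

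Across the 14745 probe sets that passed the filter on low signal, 1310 differed between cngc4 and akt1 roots at a Benjamini-Hochberg adjusted p under 0.05 in limma, which is 8.88% of those tested. Of these 670 were higher in cngc4 (4.54%) and 640 were lower (4.34%). These are the shares over all probe sets to set beside each count of list members below. At least a 2-fold change, on the scale of log2(signal + 16), was reached by 150 higher and 81 lower probe sets. The 3 cngc4 arrays all lay above the 3 akt1 arrays for 14.5% of the probe sets and all below them for 14.2%. An unadjusted limma p under 0.05 was found for 3692 of the 14745. Counts of unadjusted p in the lists below are to be set beside that share. Of the 1310, 671 name 1 gene, 326 of them higher and 345 lower. The median log2 fold change over all tested probe sets was -0.004 and the median standard error was 0.16. The count depended on single arrays: it was 304 without cngc4 replicate 2, 349 without akt1 replicate 2, 719 without akt1 replicate 3 and 849 without cngc4 replicate 1. Every fold change below is a difference of log2(signal + 16), cngc4 minus akt1, followed by its standard error, and every adjusted p is from limma over all tested probe sets.

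**Figure D1:**
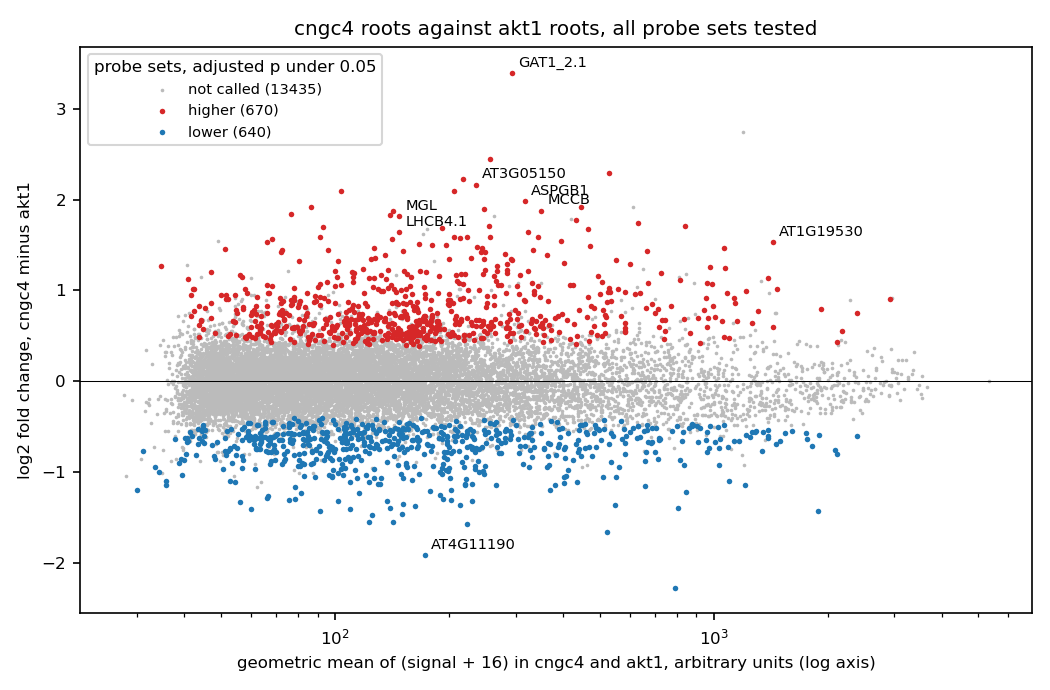
Each point is 1 of the 14745 probe sets, with the geometric mean of signal + 16 in cngc4 and akt1 on a log axis and the log2 fold change on the vertical axis, red where called higher (670) and blue where called lower (640). The highest named point is GAT1_2.1 at 3.40, and the lowest named point is AT4G11190 at -1.92.

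Several genes that break down amino acids rose in cngc4 roots relative to akt1 roots. Of 6 genes of asparagine, glutamine, methionine and lysine breakdown, 5 were called higher and none lower, with a median log2 fold change of 1.50. GAT1_2.1, which encodes a class I glutamine amidotransferase-like protein, gave signals of 801, 1128 and 658 in the 3 cngc4 samples and 169.5, 38.9 and 36.5 in the akt1 samples. Every cngc4 sample was far above every akt1 sample, and akt1 replicate 1 stood above its own group. The log2 fold change was 3.40 ± 0.58 (adjusted p = 0.00373), the largest increase among named genes whose arrays did not overlap. ASPGB1, an asparaginase that releases ammonium from asparagine, read 465, 839.7 and 540.1 in cngc4 and 196, 104 and 129.5 in akt1. Here too the groups were apart, with a log2 fold change of 1.98 ± 0.26 (adjusted p = 0.000822). The related asparaginase gene ASPGA1 overlapped between the groups, at 117 to 158 in cngc4 and 130.3 to 151 in akt1, and its log2 fold change was 0.01 (adjusted p = 0.978).

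Methionine and lysine breakdown gave the other members of that list. MGL, the methionine gamma-lyase that splits methionine, read 262, 345 and 186 in cngc4 against 71.2, 52.3 and 61.6 in akt1, and the lowest cngc4 sample was above the highest akt1 sample (1.82 ± 0.28, adjusted p = 0.00193). AT4G33150 encodes LKR/SDH, the bifunctional enzyme that opens lysine breakdown. Its signals of 418, 528 and 493 in cngc4 were clear of the 264, 228 and 263 in akt1 (0.89 ± 0.13, adjusted p = 0.0014), and the ws2 samples lay between 248 and 259. ALDH7B4, an aldehyde dehydrogenase that acts further along lysine breakdown, read 986, 1379 and 875 in cngc4 and 583, 382 and 424 in akt1. That is a log2 fold change of 1.19 ± 0.20 with no overlap (adjusted p = 0.00345).

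Several genes of the mitochondrial route for leucine and valine rose as well. Among 8 genes of branched-chain amino acid breakdown, 4 were called higher and none lower, and all 8 log2 fold changes were positive with a median of 0.53. MCCA and MCCB encode the subunits of methylcrotonyl-CoA carboxylase, which acts on an intermediate of leucine. MCCB read 603.5, 811 and 558.5 in cngc4 and 141, 172 and 184 in akt1 (1.88 ± 0.17, adjusted p = 0.000143). MCCA read 377, 554 and 364 against 149, 113 and 131 (1.59 ± 0.17, adjusted p = 0.00028). For both subunits the lowest cngc4 sample was more than any akt1, ws2 or cngc1 sample. IVD, the isovaleryl-CoA dehydrogenase that acts upstream of the carboxylase, read 238, 355 and 259 in cngc4 against 138, 69.1 and 70.9 in akt1, again without overlap (1.50 ± 0.23, adjusted p = 0.00179). ALDH6B2, the methylmalonate semialdehyde dehydrogenase of valine breakdown, moved less, from 182, 255 and 208 in akt1 to 290.3, 397 and 313 in cngc4 (0.60 ± 0.14, adjusted p = 0.0201). The electron acceptors of IVD did not pass: ETFALPHA and ETFBETA, the subunits of the electron transfer flavoprotein, had log2 fold changes of 0.11 and 0.26, and the flavoprotein oxidoreductase ETFQO had 0.47. D2HGDH, a dehydrogenase that feeds the same carriers, had 0.16.

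**Figure D2:**
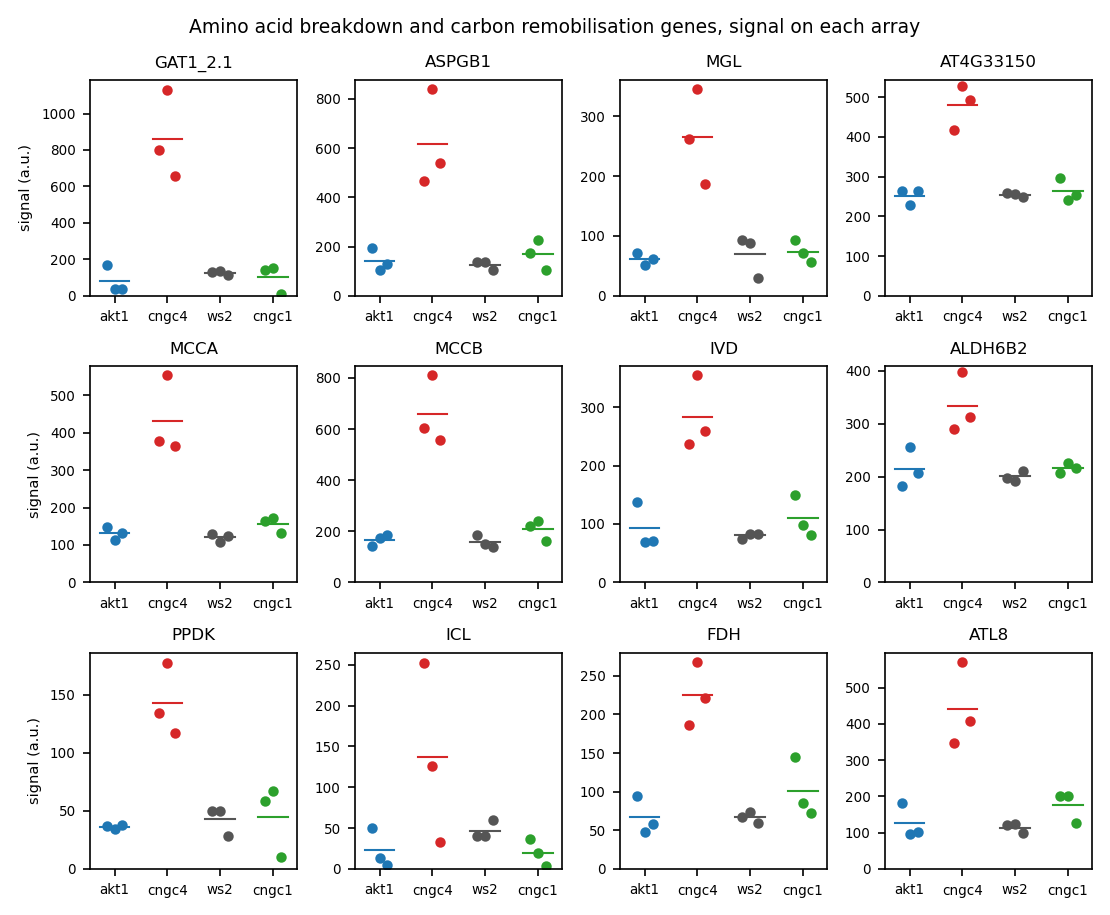
Signal in arbitrary units on each array for 12 genes of amino acid breakdown and carbon remobilisation, with 3 points per genotype and a line at their mean. In every panel except that of ICL the 3 cngc4 points lie above the 3 akt1 points, as for MCCB, at 558.5 to 811 against 141 to 184.

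Of 5 genes listed for energy shortage, 4 were called higher and none lower, with a median of 1.59. ATL8, a RING-type ubiquitin ligase whose transcript is known to respond to sugar status, read 347.5, 572 and 409 in cngc4 and 181, 95.6 and 101 in akt1 (1.71 ± 0.23, adjusted p = 0.000928). AKINBETA1, a regulatory subunit of the energy-sensing kinase SnRK1, read 429, 449.6 and 345 against 249, 155 and 207 (0.96 ± 0.16, adjusted p = 0.0032). In both genes the groups were apart. PPDK, pyruvate orthophosphate dikinase, was even in akt1, at 37.0, 34.3 and 37.7, and reached 134.5, 178 and 117 in cngc4 (1.59 ± 0.32, adjusted p = 0.00822). ICL, the isocitrate lyase of the glyoxylate cycle, read 252, 125.5 and 32.5 in cngc4 and 50.0, 12.9 and 4.80 in akt1. Its groups overlapped and its akt1 mean lay in the low-signal range, so the log2 fold change of 1.84 ± 0.52 (adjusted p = 0.038) is not exact, and the call was lost in 9 of 23 alternative settings. BZIP53, a transcription factor of the same list, read 513 to 539 in cngc4 and 559 to 680.5 in akt1 and did not pass (-0.25, adjusted p = 0.325).

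The lists of glycolysis and of fatty acid breakdown had calls in both directions. Of 10 genes of glycolysis and fermentation 2 rose, FDH and PPDK, and 1 fell. FDH, the mitochondrial formate dehydrogenase, read 186, 268 and 221 in cngc4 against 94.3, 47.9 and 58.3 in akt1 (1.57 ± 0.22, adjusted p = 0.00123). The phosphoglycerate mutase-type gene PGM fell from 160.4, 179.7 and 235 in akt1 to 134, 91.2 and 121 in cngc4 (-0.66 ± 0.17, adjusted p = 0.0265). Of 5 genes of fatty acid beta-oxidation and the peroxisome 2 rose, SDP1 and ICL, and 1 fell, with a median of 0.16. SDP1, a lipase that releases fatty acids from stored triacylglycerol, read 163, 209.7 and 174.5 against 104, 100.3 and 111 (0.71 ± 0.13, adjusted p = 0.0049). PEX4, a ubiquitin-conjugating enzyme of the peroxisome, read 279, 310.0 and 315 in cngc4 and 349, 467 and 436 in akt1 (-0.44 ± 0.13, adjusted p = 0.0478), and its call was lost in 14 of 24 alternative settings. DELTA-OAT, ornithine aminotransferase, rose by 0.71 ± 0.16 (adjusted p = 0.0129). None of the 14 tested genes of the TCA cycle, which receives the carbon of these routes, was called by limma. Their median log2 fold change was -0.10. Of the 14, 3 had an unadjusted p under 0.05, against 3692 of all 14745 probe sets. The TCA genes of smallest p were SDH2-2, a succinate dehydrogenase subunit (-0.47, adjusted p = 0.0723), and IDH-V, an isocitrate dehydrogenase subunit (-0.48, adjusted p = 0.0812). None of the 10 autophagy genes was called either, 2 having an unadjusted p under 0.05, and the ATG8 members ATG8B (0.41) and ATG8G (-0.57, adjusted p = 0.0508) had opposite signs.

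The amino acid and energy lists were drawn up with earlier results of cngc4 against ws2 known, and that comparison uses the same cngc4 arrays. All other gene lists, those below included, were likewise drawn up with earlier results of these data known. The counts of every list are thus no independent evidence of a direction. Without cngc4 replicate 2 the energy list kept 2 of its 4 calls. PDC2, a pyruvate decarboxylase listed under low oxygen, read 398, 375 and 207 in cngc4 and 413, 109 and 103 in akt1, with overlap and no call (0.84, adjusted p = 0.178). None of the 3 genes of the low oxygen list was called by limma, 1 having an unadjusted p under 0.05.

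Many transcripts of the plastid genome rose in cngc4 roots relative to akt1 roots. Of 69 plastid-encoded genes 62 passed the filter on low signal. Of these 62, 32 were called higher, none was called lower, and every log2 fold change was positive, with a median of 0.73. That share is 51.6%, against 4.54% of all probe sets, while the share of genes called in either direction ran from 6.92% to 9.11% over the 5 nuclear chromosomes. No plastid gene passed the filter through the cngc4 arrays alone, and the 7 that did not pass had log2 fold changes of -0.06 to 0.57 without a filter, none of them called. The median signal of the 62 genes was 187, 296 and 256.5 in the cngc4 samples and 142, 145 and 120.2 in the akt1 samples. All 3 cngc4 samples lay above all 3 akt1 samples, and cngc4 replicate 1 was the lowest of its group. In ws2 the median was 165, 183 and 139, and in cngc1 162, 192 and 167, so akt1 overlapped ws2, and cngc4 replicate 1 was inside the range of the cngc1 samples.

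At least 1 gene of each plastid-encoded complex of the photosynthetic membrane was called higher. In photosystem II, 9 of 14 genes were called, with a median of 0.98. psbH read 179.5, 265 and 205 in cngc4 and 90.5, 72.1 and 87.6 in akt1 (1.21 ± 0.19, adjusted p = 0.0025), and psbZ read 382, 589 and 379 against 192, 193 and 178 (1.17 ± 0.17, adjusted p = 0.00151). Both were well apart. psbA, which encodes the D1 reaction centre protein, overlapped, at 474, 839 and 740 in cngc4 and 497, 412 and 274 in akt1, and did not pass (0.77, adjusted p = 0.137). In photosystem I, 3 of 5 genes were called, among them psaB, a reaction centre subunit, which was tight in akt1 at 432 to 445 and spread in cngc4 at 689.6 to 1095 (0.97 ± 0.17, adjusted p = 0.00443). Of the 5 cytochrome b6f genes only petB was called, at 1554, 1723.5 and 1300.0 in cngc4 and 894, 842 and 750.5 in akt1 (0.86 ± 0.15, adjusted p = 0.00428).

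The ATP synthase and the NDH complex, an electron input of the membrane, had 4 of 5 and 6 of 8 genes called, with medians of 1.00 and 1.08. atpA read 822.5, 923 and 1036 in cngc4 and 335, 382 and 383.5 in akt1 (1.30 ± 0.22, adjusted p = 0.00336). For this gene ws2 replicates 1 and 2 reached 682 and 678, well above akt1, while ws2 replicate 3 read 326. atpB was the steadiest of the group, at 1658 to 1794 in cngc4 and 779 to 953 in akt1 (1.00 ± 0.14, adjusted p = 0.00105). ndhC read 377, 482 and 321 against 172, 166 and 138 (1.21 ± 0.23, adjusted p = 0.00719). Of the genes that express the plastid genome, 5 of 14 for ribosomal proteins were called, with a median of 0.61, and 2 of 3 for the RNA polymerase, rpoA (0.68) and rpoC2 (0.66). Besides rps4, the ribosomal genes called were rpl22 (0.96), rpl33 and rps2 (each 0.82) and rpl14 (0.80). rps4 read 789, 812 and 575 in cngc4 and 374.5, 366 and 328 in akt1 (0.98 ± 0.17, adjusted p = 0.00431). Among these ribosomal genes ws2 overlapped cngc4 for rpl33 and rpl14, but not for rpl22, rps2 and rps4. cemA, which encodes a protein of the plastid envelope, had a log2 fold change of 1.01. Its ws2 samples, at 186 to 333, overlapped cngc4, at 274 to 373, and its akt1 samples, at 131 to 173, were below every ws2 sample. rbcL, the large subunit of Rubisco, was near level, at 71.1 to 103 in cngc4 and 66.3 to 83.9 in akt1 (0.16, adjusted p = 0.492).

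**Figure D3:**
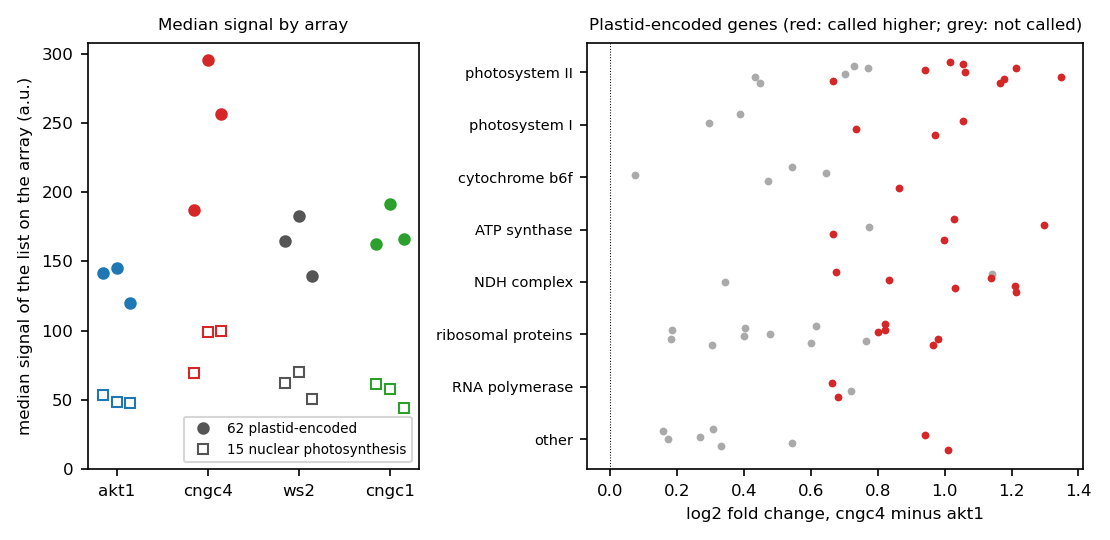
Left, the median signal of 62 plastid-encoded genes (filled circles) and 15 nuclear photosynthesis genes (open squares) on each array, with the circles of cngc4 at 187 to 296 above those of akt1 at 120.2 to 145. Right, the log2 fold change of each plastid-encoded gene by complex, red where called higher, with all points to the right of 0 and psbI highest at 1.35.

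Nuclear genes of photosynthesis, which also mark shoot tissue, were called in the same direction as the plastid genes. Of 22 listed, 15 passed the filter, 9 were called higher and none lower, with a median of 0.72. LHCB4.1, a minor antenna protein of photosystem II, read 235, 282 and 217.5 in cngc4 and 53.2, 79.4 and 70.9 in akt1, with no overlap (1.64 ± 0.19, adjusted p = 0.00043). RCA, which keeps Rubisco active, read 189, 212 and 249 against 113, 78.4 and 71.4 (1.18 ± 0.24, adjusted p = 0.00829). The groups were apart, and the ws2 samples, at 92.2 to 162, were below cngc4 and overlapped akt1. CHLM, a methyltransferase of chlorophyll synthesis, read 105.5, 139 and 117 against 72.0, 74.1 and 67.8 (0.64 ± 0.12, adjusted p = 0.00681). PRK, the phosphoribulokinase of the Calvin cycle, rose by 0.78, SBPASE of the same cycle by 0.47, and the photosystem II proteins PSBW, PSB27 and PSBY by 1.04, 0.93 and 0.72. LIL3:2, a light-harvesting-like protein that serves chlorophyll synthesis, rose by 0.49. PGRL1B, a protein of cyclic electron flow, had the lowest log2 fold change of the list, -0.27.

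The summed signal of the 15 nuclear genes was 1312, 1749 and 1859 in cngc4 and 863, 805 and 814 in akt1, and in ws2 it was 1091.5, 1257 and 793. The 7 members below the filter were listed at 2.20 to 42.0 in cngc4 and 2.20 to 25.9 in akt1, and LHCB4.2, an antenna gene of the same small family as LHCB4.1, was at 2.20 to 17.8 and 2.20 to 3.30. Of these 7, TROL was called when no filter was set. Whole roots cut near the shoot can hold shoot tissue, and its part in these differences, or in those of the amino acid and wall genes, was not tested. RNA was labelled from an oligo-dT primer, and most plastid RNA carries no lasting poly(A) tail, so the signal of a plastid gene need not follow the amount of its RNA. The plastid count was 20 with no filter, 11 without cngc4 replicate 2, 15 without akt1 replicate 2, 16 without akt1 replicate 3 and 20 without cngc4 replicate 3; the nuclear count was 5, 4, 3, 5 and 4 under the same changes.

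Of 11 mitochondria-encoded genes tested 3 were called higher and none lower, which is 27.3% against 4.54% of all probe sets. Of the 11 log2 fold changes 9 were positive, with a median of 0.24. cox1, a subunit of cytochrome oxidase, read 336.5, 373 and 264 in cngc4 and 227, 193 and 186 in akt1 (0.64 ± 0.16, adjusted p = 0.0243). nad5, a complex I subunit, read 90.5, 93.4 and 50.1 against 40.8, 39.5 and 43.2 (0.68 ± 0.17, adjusted p = 0.0257). The third was the cytochrome c maturation gene ccb382 (0.56, adjusted p = 0.0425), whose call was lost in 10 of 24 alternative settings. All 3 calls were lost when cngc4 replicate 1, cngc4 replicate 2, akt1 replicate 2 or akt1 replicate 3 was left out alone. Of 10 nuclear genes of mitochondrial electron transfer 2 were called lower. CYTC-1, a cytochrome c, read 1363, 1173 and 1394 in cngc4 against 2034, 2228 and 1577 in akt1 (-0.55 ± 0.13, adjusted p = 0.0208), and the external NADH dehydrogenase NDB2 had a log2 fold change of -0.51.

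**Figure D4:**
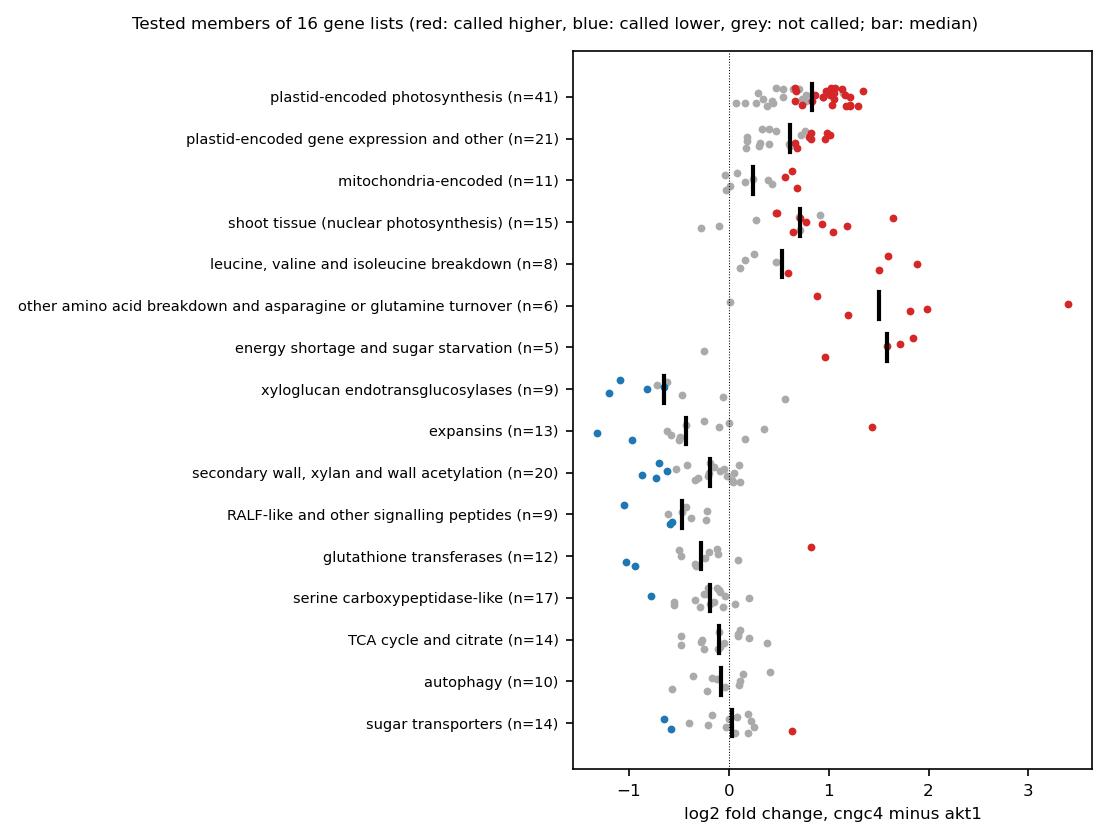
Log2 fold change, cngc4 minus akt1, of each tested member of 16 gene lists, with a bar at the median of each list, red where called higher, blue where called lower and grey where not called. The medians run from -0.64 for the xyloglucan endotransglucosylases to 1.59 for energy shortage.

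Some wall-loosening genes fell in cngc4 roots. Of 9 xyloglucan endotransglucosylases, which cut and rejoin the xyloglucan tethers of the wall, 4 fell (44.4%) and none rose. Their median was -0.64. Of all probe sets 4.34% were called lower. XTH18 read 78.9, 150.0 and 127 in cngc4 and 235, 272 and 359.7 in akt1 (-1.20 ± 0.21, adjusted p = 0.00459). XTH19, its neighbour by locus number, read 76.2, 89.4 and 117.5 against 196, 231.5 and 221 (-1.09 ± 0.17, adjusted p = 0.00203). Neither gene overlapped between the groups, and in both every ws2 sample was above every cngc4 sample, at 159 to 246 and 135 to 180.5. For XTH19 every akt1 sample was in turn above every ws2 sample. For XTH18 akt1 overlapped ws2, with means of 289 and 203. XTH32 and XTH20 fell by 0.82 and 0.64. EXGT-A3 stood at the other end of the family, at 179, 350.5 and 204 in cngc4 and 140, 167.5 and 155 in akt1, and did not pass (0.56, adjusted p = 0.0854). The count of 4 was 2 without akt1 replicate 2 and 2 without cngc4 replicate 2.

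Expansins, which loosen walls without cutting them, were split. Of 13 tested, 2 fell (15.4%) and 1 rose (7.69%), with a median of -0.42. EXPB2 read 139, 107 and 144 in cngc4 and 320.4, 340.3 and 381 in akt1, with no overlap (-1.32 ± 0.27, adjusted p = 0.00843). In ws2 the same gene read 472 to 534, so akt1 also lay below every ws2 sample. EXPB3 read 217, 137 and 104 against 234, 337 and 351 (-0.97 ± 0.24, adjusted p = 0.0237), with cngc4 replicate 1 close to akt1 replicate 1. The expansin-like gene EXLB1 moved the opposite way, from 100.5, 69.4 and 55.1 in akt1 to 216, 331 and 158 in cngc4 (1.44 ± 0.21, adjusted p = 0.0014).

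Some genes listed for wall acetylation also fell. Among 20 genes of the secondary wall, xylan and wall acetylation 4 fell (20%, against 4.34% of all probe sets). All 4 are TBL genes, a family in which some proteins add acetyl groups to wall polymers. TBL30 read 58.7, 74.8 and 78.7 in cngc4 and 122.5, 145.5 and 160.0 in akt1 (-0.87 ± 0.15, adjusted p = 0.00439). TBL38, TBL36 and TBL37 had log2 fold changes of -0.73, -0.69 and -0.62, and the call of TBL37 was lost in 13 of 24 alternative settings. The calls of all but TBL30 were lost when akt1 replicate 2, cngc4 replicate 2 or akt1 replicate 3 was left out alone. The xylan synthesis genes GUT1 and GUT2, which mark xylem, were level, at 0.05 and -0.04. None of the 15 tested genes of endoglucanases and cellulose synthesis was called by limma, and 4 had an unadjusted p under 0.05. The endoglucanase gene GH9B13 read 87.3, 64.3 and 66.4 in cngc4 and 97.8, 201 and 186 in akt1 (-0.96, adjusted p = 0.0723), and GH9C2 had a log2 fold change of -0.55 (adjusted p = 0.0989).

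Of 13 genes of tubulin, actin and growth direction 3 fell (23.1%, against 4.34% of all probe sets). SKU5, a wall-associated protein that sets the direction of root growth, read 458, 331 and 493 in cngc4 and 680.1, 807 and 753 in akt1 (-0.80 ± 0.16, adjusted p = 0.00888). THE1, a receptor kinase that senses wall damage, read 68.3, 44.4 and 62.0 against 87.9, 105 and 102 (-0.63 ± 0.14, adjusted p = 0.0157). Both genes were apart between the groups, and in both the ws2 samples overlapped akt1, at 733 to 972 and 88.2 to 104. The tubulin gene TUB1 had a log2 fold change of -0.69 (adjusted p = 0.0329). The calls of SKU5, THE1 and TUB1 were all lost without akt1 replicate 2, and likewise without cngc4 replicate 2.

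Signalling peptides of the RALF and CLE families, small secreted peptides of which RALF members restrain cell growth, were all on the negative side. All 9 tested log2 fold changes were below 0, with a median of -0.46 against -0.004 over all probe sets. Of the 9, 3 passed (33.3%, against 4.34% of all probe sets called lower). RALFL24 read 34.8, 43.1 and 58.4 in cngc4 and 93.0, 143 and 99.0 in akt1 (-1.05 ± 0.18, adjusted p = 0.00343). RALFL34 read 195, 180.4 and 199 against 314, 316 and 248 (-0.56 ± 0.14, adjusted p = 0.0252). CLE41, a peptide that maintains vascular stem cells, had a log2 fold change of -0.59 (adjusted p = 0.0372), and its highest cngc4 sample, 57.8, was just under its lowest akt1 sample, 60.5. RALFL33 missed the threshold at -0.60 (adjusted p = 0.0544), with cngc4 at 213 to 286 and akt1 at 355 to 449; ws2, at 211.5 to 362, was closer to cngc4.

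Of 8 auxin genes 1 fell (12.5%, against 4.34% of all probe sets). Of 4 tested genes of the cytokinin, gibberellin and brassinosteroid list, none of them a cytokinin gene, 3 rose (75.0%, against 4.54% of all probe sets). GH3.17, an enzyme that ties auxin to glutamate, read 142, 98.4 and 109.5 in cngc4 and 237, 374 and 379.8 in akt1, with no overlap (-1.37 ± 0.18, adjusted p = 0.000793). Its ws2 samples, 247 to 297, lay within the akt1 range, and its cngc1 samples, 146 to 184, just above cngc4. The 3 genes called higher all encode gibberellin receptors, and the fourth member, the brassinosteroid receptor-like gene BRL1, had a log2 fold change of 0.08 (adjusted p = 0.801). GID1A read 147, 145 and 110.2 in cngc4 and 78.4, 68.2 and 78.3 in akt1 (0.71 ± 0.12, adjusted p = 0.00384). GID1B read 214, 183 and 206 against 145, 104 and 108 (0.70 ± 0.15, adjusted p = 0.0123). The third receptor gene, GID1C, was weaker, at 46.1 to 60.6 and 25.8 to 42.5 (0.49, adjusted p = 0.0488), and its call was lost in 17 of 23 alternative settings.

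**Figure D5:**
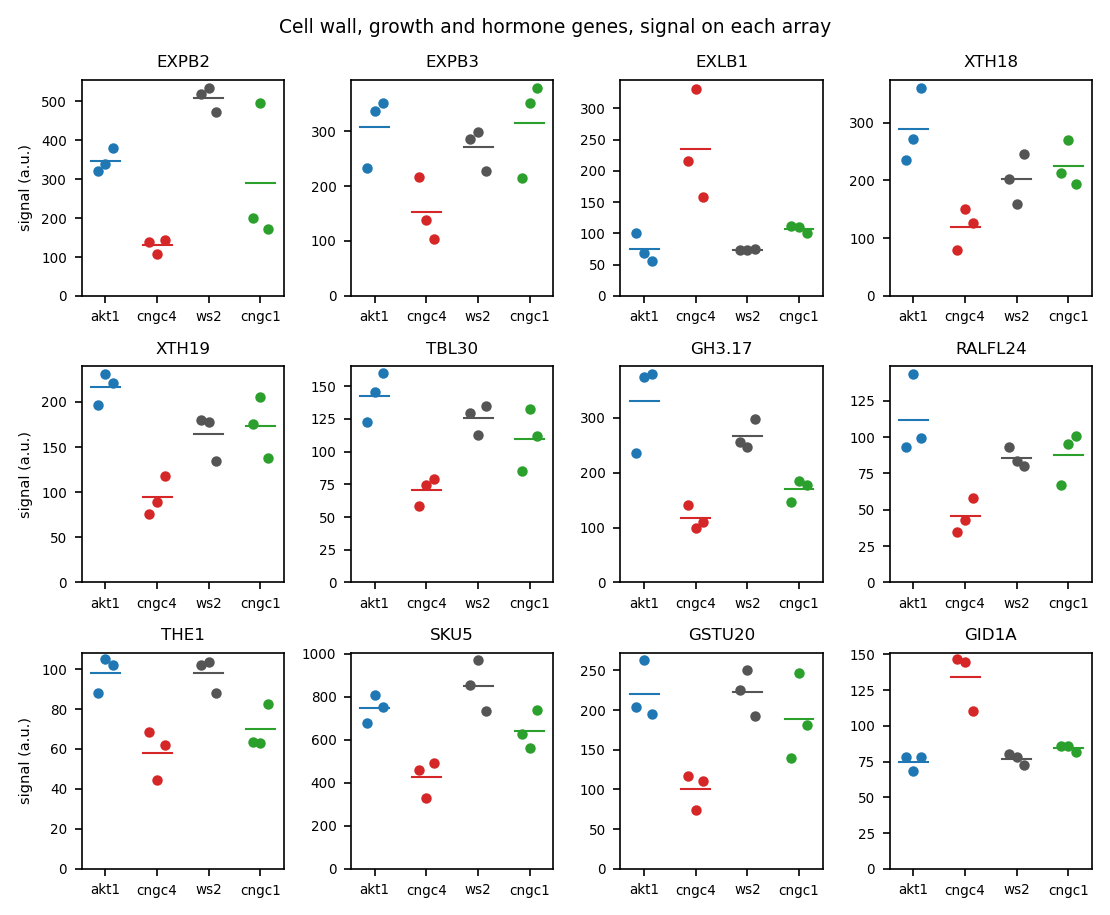
Signal in arbitrary units on each array for 12 genes of the cell wall, growth, hormones and detoxification, with 3 points per genotype and a line at their mean. EXLB1 and GID1A are higher in cngc4, and the other 10 are lower, as for GH3.17, at 98.4 to 142 against 237 to 379.8 in akt1.

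Detoxification and redox families changed in a few members. Of 12 glutathione transferases, which attach glutathione to reactive compounds, 2 fell (16.7%) and 1 rose (8.33%). GSTU20 read 117, 74.2 and 111 in cngc4 and 204, 262 and 194 in akt1 (-1.02 ± 0.20, adjusted p = 0.00704). GSTU28 fell by 0.93, and GSTU16 rose by 0.82 from a low signal in akt1, so its size is not exact. Of 25 tested UDP-glycosyltransferases, which attach sugars to small molecules, UGT73D1 (0.90), UGT73B1 (0.78) and UGT87A2 (0.63) rose and none fell, the akt1 mean of UGT73D1 lying in the low-signal range, so that its size is not exact. UGT73B1 was even in akt1, at 29.7 to 30.5, and read 84.4, 64.7 and 46.1 in cngc4. Among 8 aldehyde dehydrogenases ALDH11A3 rose beside ALDH7B4 and ALDH6B2, by 0.81 from a low signal. The methionine sulfoxide reductases MSRB9 and MSRA5, which repair oxidised methionine, had log2 fold changes of -0.57 and -0.52.

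The WRKY, defensin and defence list had 21 members, of which 13 were tested and 8 were not. None of the 13 passed in limma. Their median was 0.16, and 5 had an unadjusted p under 0.05. LCR68, a defensin-type peptide gene and the member of smallest p, read 1482, 1388 and 1436 in cngc4 and 1960, 2329 and 1761 in akt1 (-0.48, adjusted p = 0.0557). WRKY22, a transcription factor, read 140, 141 and 111 in cngc4 and 110.3, 82.9 and 87.3 in akt1 (0.42, adjusted p = 0.0572), and the defensin PDF1.4 read 153, 304 and 162 against 88.1, 83.3 and 64.9 (1.18, adjusted p = 0.0645). All 3 genes were apart between the groups and missed the threshold, LCR68 on the negative side and the others on the positive side. The stress-induced zinc finger gene STZ, listed under calcium and touch signalling, rose from 125.5, 150.0 and 137 to 267, 300.2 and 185 (0.77 ± 0.22, adjusted p = 0.039), with its call lost in 10 of 24 alternative settings. CML38, a calmodulin-like protein, overlapped fully, at 22.5 to 120.0 in cngc4 and 31.3 to 122 in akt1. Of 6 class III peroxidases AT2G41480, which encodes PRX25, fell by 0.68 with overlapping groups.

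Sugar transporters had calls in both directions. Of 14 tested 1 rose (7.14%, against 4.54% of all probe sets) and 2 fell (14.3%, against 4.34%). SWEET2, a vacuolar sugar carrier of roots, rose from 112, 117 and 142 to 157, 246 and 206 (0.63 ± 0.15, adjusted p = 0.0188). SWEET13 and the vacuolar carrier gene TMT2 had log2 fold changes of -0.58 and -0.64. The calls of SWEET2, SWEET13 and TMT2 were lost in 2, 6 and 7 of 24 alternative settings. No call was made among 3 proton pump genes, 4 glutamate receptor-like channels, 6 iron, zinc and copper genes, 4 sulfur assimilation genes or 9 tetraspanins in limma. An unadjusted p under 0.05 was found for 1 gene each of the sulfur and tetraspanin lists and for 0 of the other lists. The 6 tested meristem and cell cycle genes all had negative log2 fold changes, with a median of -0.18 against -0.004 over all probe sets. None of the 6 passed in limma (1 had an unadjusted p under 0.05), the Aurora kinase AUR1 being at -0.37 (adjusted p = 0.077). Other single calls were IQD23 (-0.65), AGL42 (-0.59), scpl48 (-0.78), CYP71B6 (0.69) and JAL34 (0.43), each the only call of its list. In that order these calls were lost in 1, 8, 3, 6 and 8 of 24 alternative settings. The lists of IQD23, AGL42 and CYP71B6 had 8, 9 and 8 genes tested, and the single calls were shares of 12.5%, 11.1% and 12.5%. The lists of scpl48 and JAL34 had 17 and 15 genes tested. Their shares called, 5.88% and 6.67%, were near the 4.34% lower and 4.54% higher of all probe sets.

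Other lists without a call had these members of smallest p, none of which passed in limma. Over all 14745 probe sets 3692 had an unadjusted p under 0.05. In dehydration and heat protection (7 genes tested, 3 with an unadjusted p under 0.05), COR47, a dehydrin, was at -0.41 (adjusted p = 0.05004) and DI21 at -0.50 (adjusted p = 0.0559). In phosphatidylcholine and sphingolipid synthesis (7 genes, 1 with an unadjusted p under 0.05), CCT2 was at 0.56 and LCB2 at 0.31. Among 10 vacuolar processing and subtilisin proteases ATSBT5.2 was at 0.60 and SBT1.3 at -0.27, and 1 had an unadjusted p under 0.05. Among 10 genes of the MYB, NAC, bHLH and bZIP list BZIP61 was at -0.86 and bZIP44 at -0.42, and 3 had an unadjusted p under 0.05. For starch and sucrose cwINV6 was at 0.40 and PWD at 0.13, with 1 of 4 under an unadjusted p of 0.05. The sulfur genes APS4 and OASA2 were at 0.46 and 0.28, and the tetraspanin genes TET2 and TET10 at 0.39 and -0.25. The metal genes MTP11 and LPR2 were at -0.25 and 0.21, the receptor-like channels GLR3.3 and GLR3.6 at 0.08 and -0.03, and the proton pump genes VHA-A3 and VHA-A2 at 0.07 and 0.03. BUBR1 of the cell cycle was at -0.40, the phloem marker SWEET11 at 0.22, the wall gene PMEPCRF at 0.24 and the lignin gene HCT at -0.27. CCT2 in akt1, and BZIP61 and BUBR1 in cngc4, had means in the low-signal range.

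Many of the largest differences belong to genes known here by locus number only. Among the 15 largest increases, AT3G05150 read 403, 587 and 426 in cngc4 and 152, 86.9 and 55.5 in akt1 (2.17 ± 0.28, adjusted p = 0.000729). AT2G20670 read 286, 454 and 293 against 114, 84.5 and 107 (1.59 ± 0.23, adjusted p = 0.0014). AT1G19530 was the brightest of them, at 1996, 3155 and 1877 against 1406, 622 and 535 (1.53 ± 0.33, adjusted p = 0.0127). In all of these the groups were apart, and for AT1G19530 akt1 replicate 1 stood well above the others of its group. AT2G15960 had a log2 fold change of 1.72, and AT1G19960 (1.57) and AT4G33710 (1.54) had akt1 means in the low-signal range.

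On the side of the decreases, AT4G11190 read 116, 36.2 and 59.7 in cngc4 and 138.5, 511 and 331 in akt1 (-1.92 ± 0.38, adjusted p = 0.00791), the groups being apart by the narrow gap between their first replicates. AT4G25250 was more even, at 70.1, 40.4 and 68.3 against 165, 198 and 213 (-1.48 ± 0.19, adjusted p = 0.000695). AT5G01740 read 32.9, 31.8 and 46.7 against 97.8, 128.5 and 100.5 (-1.24 ± 0.16, adjusted p = 0.000695). AT3G25790 had a log2 fold change of -1.43 and AT5G14650 of -1.30, and both were below every ws2 and cngc1 sample as well. The remaining decreases among the largest 15 by this rule, apart from GH3.17 and EXPB2, were AT5G04120 and AT1G09750 (each -1.41), AT1G73600 (-1.37), AT2G38600 (-1.36), AT1G20070 (-1.32), AT4G23870 (-1.30), AT1G78990 (-1.26) and AT1G57590 (-1.23). AT5G04120 and AT1G78990 had cngc4 means in the low-signal range.

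Of the 106 named genes that were called, 46 were called under each of the alternative settings and 60 were lost in 1 or more, and none changed sign. The 46 include GAT1_2.1, ASPGB1, MGL, MCCA, MCCB, IVD, ATL8, AKINBETA1, FDH, LHCB4.1, RCA, atpA, atpB, XTH18, XTH19, TBL30, RALFL24, GH3.17, GID1A and EXLB1. Each of the 60 was lost when akt1 replicate 2 was left out, when cngc4 replicate 2 was left out, or in both cases. In the group of largest genes PPDK, EXPB2, AT4G11190 and AT1G57590 were each lost only without cngc4 replicate 2. Their limma adjusted p was then 0.0519, 0.0533, 0.0511 and 0.0576. AT4G33710 and AT5G04120 were lost in 6 of 24 alternative settings, and AT2G15960 and AT1G20070 in 5. AT1G19530 and AT4G23870 were lost in 3, AT1G09750 in 2 and AT1G73600 in 1.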

How the data were processed

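Each of the 12 whole-root samples was hybridised to 1 single-colour array of 22810 probe sets, per the labels' protocols, after TRIzol extraction and biotin labelling. The authors deposited linear intensity (signal) values, 1 for each probe set on each array. The means after trimming 2% at each end were equal, so the arrays had been scaled before deposit, by software not given in the sources used. The deposited values carry no detection call, and the number of arrays limits the precision.

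After removal of 64 control probe sets, probe sets above the 40th percentile of the array on 3 or more arrays were tested. With limma 3.58.1 (R 4.3.3), log2(signal + 16) on all 12 arrays was fitted by 4 genotype means and moderated by eBayes with trend. Two-sided p-values were adjusted by Benjamini-Hochberg, with a threshold of 0.05. No exact permutation test was run, since 3 against 3 arrays can reach no p below 0.1. The script was tested on simulated data. A mean signal is called low where it lies below the lowest 40th percentile of that genotype's arrays. Figures were drawn with matplotlib 3.10.9.

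Gene names came from the annotation of the array: 13513 probe sets name 1 gene, 503 several, which were not named, and 8794 none here. Of the 13513, 13436 were found in the RefSeq gene table of assembly TAIR10.1, which was used for names and chromosomes only. Where a gene had several probe sets, the brightest on average stood for it. Named are the 15 genes of largest change in each direction that passed with arrays not overlapping, and up to 8 called members of each list, or 2 of smallest p where none passed; other members named for comparison were picked after their values were seen. The groups, 53 gene lists and members were chosen with earlier results of these data known, and list membership was edited after the annotation names were seen, 6 genes whose symbol matched a list but whose annotated product did not being left out last. Lists were described by counts and medians, not tested. Of 3 pairs of same-numbered cngc4 and akt1 arrays, none had deviations from the group means correlated above 0.1 (0.017 to 0.066), so replicate numbers were not used as pairs. No 2 arrays were identical. Alternatives covered scaling, offset, filter, eBayes, array weights, the arrays fitted, a replicate block, the repeat mark in some titles, and each array left out.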

Additional observations from a re-analysis of the deposited data

How the results depend on the processing

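Besides 1310, the number of probe sets called was 797 with no filter. It was 261 by an unadjusted limma p under 0.05 with at least a 2-fold change (174 higher, 87 lower). When each of the 12 arrays was left out it ran from 304 to 1548. The lowest count was without cngc4 replicate 2 and the highest without cngc1 replicate 3. Scaling, offset, the 60th percentile filter, eBayes, array weights, fitting only the 6 arrays and the repeat mark as a covariate gave between 986 and 1757. The share of higher calls, 51.1%, was 48.0% with quantile normalization and 54.7% with median centring. A replicate block gave 1370. The titles mark 1 of the 6 arrays, cngc4 replicate 1, as a repeat without saying of what, and with the mark as a covariate 986 were called. The plastid-encoded count of 32 was 20 with no filter and 11 to 38 with an array left out, and the nuclear photosynthesis count of 9 was 5 and 3 to 10. With an array left out the energy list had 2 to 4 calls and the xyloglucan endotransglucosylases 2 to 6. The causes were not tested. With no filter more probe sets are tested, and leaving out an array leaves 2 in its group. Signals near the background bound what can be seen for weak genes.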

Other observations

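Further called genes outside the lists, picked after their values were seen, include nuclear genes of plastid function. ATPC1, a subunit of the plastid ATP synthase, read 212, 181 and 199.6 in cngc4 and 118, 87.6 and 108 in akt1 (log2 fold change 0.83, limma adjusted p = 0.00724). HPR, a hydroxypyruvate reductase, rose by 0.92, GSA1, an enzyme of tetrapyrrole synthesis, by 0.78, and AT1G74470, listed as geranylgeranyl reductase, by 0.71. In ATPC1 the groups did not overlap.

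HIS1-3, a linker histone gene known to respond to drought, read 255, 317 and 223 in cngc4 and 98.6, 126 and 103 in akt1 (1.16, limma adjusted p = 0.000989). AT5G61590, listed as DEWAX, a repressor of wax synthesis, read 572, 922.5 and 685 against 292, 359 and 284 (1.16, limma adjusted p = 0.0014). CCOAMT, a methyltransferase of the caffeoyl-CoA type, rose by 1.20. SAH7 read 420.4, 319 and 393 against 648, 857 and 641 (-0.89, limma adjusted p = 0.00339), and DRT100 had a log2 fold change of -0.63. None of these genes overlapped between cngc4 and akt1.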
